A study of Homo sapiens with 8 samples.

Results

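The basal and suprabasal keratins of stratified epithelium were followed as 7 genes chosen by name, of the 35113 genes with a matched transcript in the data: KRT5, KRT14 and KRT15 of the basal layer, KRT1 and KRT10 of the epidermal suprabasal layers, and KRT4 and KRT13 of the mucosal suprabasal layers. All 7 were among the 15221 genes that passed the expression filter and were tested. PolyA RNA was sequenced from cultured head and neck squamous cell carcinoma cells in 4 groups of 2 libraries, 8 libraries in all: the HPV− resistant clone (#411, derived from SCC89), the HPV− parental line SCC89 (UPCISCC89), the HPV+ resistant clone (#35, derived from SCC2) and the HPV+ parental line SCC2 (UDSCC2). SCC89 carries no human papillomavirus, and SCC2 does. Each HPV status is represented by 1 line and its clone, so HPV status cannot be told apart from other differences between the lines. Each resistant group was grown from a single cell that had survived long-term cisplatin, a platinum drug that crosslinks DNA, and the HPV+ line was selected in a higher dose than the HPV− line. A difference between a resistant and a parental group is therefore a difference between 1 clone and an uncloned line, and since the sources do not say whether the 2 libraries in a group are separate cultures, the p-values reflect library-to-library spread only, which may be technical.

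Keratins are the intermediate filament proteins of epithelial cells. A filament needs a type II keratin and a type I keratin, which pair as heterodimers. Basal cells of stratified squamous epithelium pair the type II keratin KRT5 with the type I keratins KRT14 and, in part of the basal layer, KRT15. Cells that leave the basal layer change partners: those of the epidermis pair KRT1 with KRT10, and those of the non-keratinized lining of the mouth, throat and oesophagus pair KRT4 with KRT13. The type II genes of the list lie together on chromosome 12 and the type I genes on chromosome 17. On GRCh38 with GENCODE annotation, KRT5 spans chr12:52514575-52520530, KRT1 chr12:52674736-52680407 and KRT4 chr12:52806549-52814116. KRT10 spans chr17:40818117-40822614, KRT13 chr17:41500981-41505705, KRT15 chr17:41513745-41522529 and KRT14 chr17:41582279-41586895. All 7 are protein-coding genes on the minus strand, and no other gene in the data overlaps any of them.

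Keratin genes arose by duplication, so the sequence that reads are assigned by is partly shared. Of the 1606 stretches of 31 bases in the main KRT14 transcript, 46.8% also occur in a transcript of another gene, with 18.2% in KRT16. The corresponding shares were 8.15% for KRT5, 5.41% for KRT15, 3.33% for KRT13, 1.89% for KRT4, 0.21% for KRT1 and 0.14% for KRT10. The longest run of coding sequence that KRT14 shares exactly with KRT16, and the longest that KRT15 shares with KRT13, are shown because the counts of the basal type I keratins rest on how reads from such runs were divided. Counted from the first base of the start codon, they cover bases 310 to 467 of KRT14 and bases 544 to 609 of KRT15 (5′ to 3′, exonic coding sequence, GENCODE transcripts of chromosome 17, no base marked).
KRT14 and KRT16: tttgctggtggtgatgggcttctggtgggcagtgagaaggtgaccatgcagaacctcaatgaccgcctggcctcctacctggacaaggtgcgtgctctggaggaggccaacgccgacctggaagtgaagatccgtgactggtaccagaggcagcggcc
KRT15 and KRT13: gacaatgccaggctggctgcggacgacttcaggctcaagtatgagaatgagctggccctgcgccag
The KRT14 run is 158 bases long and the KRT15 run 66 bases. The level of KRT16 is therefore given beside KRT14, and the KRT14 comparison was repeated with the counts of KRT14 added to those of the 4 genes that each hold at least 10% of its stretches, which are KRT16, the pseudogenes KRT16P5 and KRT16P6, and ENSG00000290977.

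The libraries held from 20250246 to 27341284 estimated counts. For 1 gene across libraries, levels are given in CPM, counts per 1000000 of the normalized library size. Shares and ratios among keratin genes are given in TPM, which also divides by transcript length. Marker sums are in CPM, and CPM of different genes set side by side are not corrected for length. Ranks among genes are also by CPM, without division by transcript length, and so favour longer transcripts. A gene was called when edgeR's quasi-likelihood test gave a Benjamini-Hochberg adjusted p under 0.05 over all 15221 genes and the log2 fold change lay beyond 1 in either direction. All 7 squamous epithelium markers (TP63, CDH1, EPCAM, SFN, DSP, PKP1 and PERP) were at 1 CPM or more in every group. Of 8 fibroblast markers, 4 reached 1 CPM in the HPV+ groups, with summed levels of 1450 to 3220 CPM in HPV+ resistant libraries and 3070 to 3390 CPM in HPV+ parental libraries, nearly all of it COL3A1, LUM and DCN. PDGFRB was at 0 in all 4 HPV+ libraries and PDGFRA was at 0 in the HPV+ resistant libraries. In the HPV− groups the fibroblast sum was 12.6 to 13.1 CPM in resistant libraries and 5.23 to 5.59 CPM in parental libraries. Leukocyte markers summed to at most 21.4 CPM in any library, and endothelial markers to at most 0.453 CPM. In bulk RNA, fewer cells of a kind and less RNA per cell cannot be told apart.

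**Figure D1:**
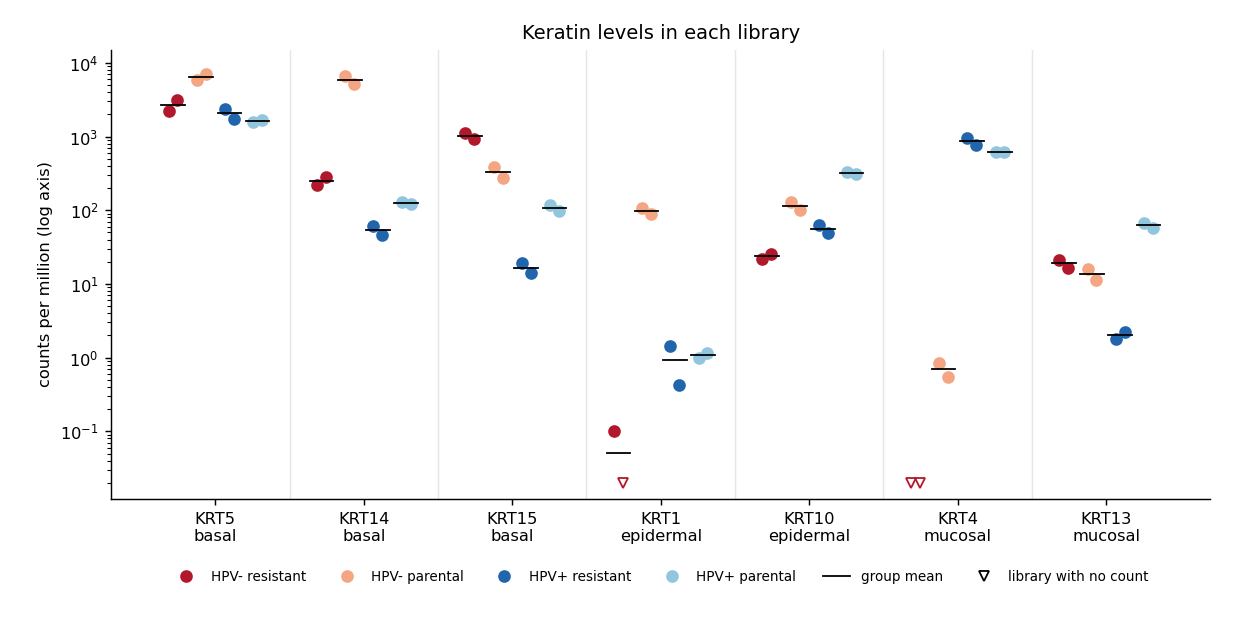
Level of each keratin in each of the 8 libraries, in CPM on a log axis, with 2 points per group, a line at each group mean and open triangles at the foot for libraries with no count. KRT5 is at 1581 CPM or more in every library, whereas KRT4 is at 616.6 CPM or more in the HPV+ libraries and under 1 CPM in the HPV− libraries.

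In HPV− cells the resistant clone held far less KRT14 transcript, less KRT5 and more KRT15 than the parental line. KRT14, the main basal type I keratin, had 221.5 and 281.9 CPM in the HPV− resistant libraries, against 6547 and 5121 CPM in the HPV− parental libraries. By CPM it ranked 2nd and 7th among genes in the parental libraries. The groups lay far apart, and the fitted level was 23.2-fold lower in the resistant clone (log2 fold change −4.53 ± 0.23 SE, edgeR adjusted p = 2.66e-06). KRT16, with which KRT14 shares sequence, moved the same way, with 1.66 and 2.19 CPM in resistant and 355 and 216 CPM in parental libraries. With the counts added together the log2 fold change was −4.59.

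KRT5, the type II partner of the basal layer, had 2204 and 3109 CPM in the HPV− resistant libraries, against 5807 and 7000 CPM in the HPV− parental libraries. Both resistant libraries were below both parental libraries, by 2.41-fold in the fit (log2 fold change −1.27 ± 0.22 SE, edgeR adjusted p = 0.00292). By CPM, KRT5 still ranked 24th and 17th among genes in the resistant libraries. When the test was run against a log2 fold change of 1 rather than of 0, KRT5 was no longer called (edgeR adjusted p = 0.544).

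KRT15, the other basal type I keratin, went the opposite way, with 1136 and 919.5 CPM in the HPV− resistant libraries and 387.8 and 270.1 CPM in the HPV− parental libraries. It was 3.13-fold higher in the resistant clone (log2 fold change 1.64 ± 0.22 SE, edgeR adjusted p = 0.000781, and 0.0642 against a log2 fold change of 1). KRT15 was the only one of the 7 called higher in this comparison. On the TPM scale KRT14 made up 16.25% and 23.24% of the sum of KRT14 and KRT15 in the resistant libraries, against 94.12% and 94.96% in the parental libraries, so the more abundant basal type I transcript was KRT15 in the clone and KRT14 in the parental line.

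In HPV+ cells both basal type I keratins were lower in the resistant clone and KRT5 was not called. KRT15 had 19.39 and 13.91 CPM in the HPV+ resistant libraries, against 116.4 and 98.62 CPM in the HPV+ parental libraries, and fell 6.46-fold (log2 fold change −2.69 ± 0.24 SE, edgeR adjusted p = 0.000129). KRT14 had 60.95 and 46.34 CPM in the HPV+ resistant libraries and 131.1 and 123.3 CPM in the HPV+ parental libraries. The KRT14 groups did not overlap, and the fold was 2.37 lower (log2 fold change −1.25 ± 0.20 SE, edgeR adjusted p = 0.00311). This call did not hold in 2 alternatives. KRT16 stood at 34.7 and 19.1 CPM in resistant and 33.6 and 30.0 CPM in parental libraries, and with KRT14 added to KRT16 and the other 3 such genes the log2 fold change was −0.98 (edgeR adjusted p = 0.0137), just short of the fold threshold. Against a log2 fold change of 1 the adjusted p of KRT14 alone was 0.70.

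KRT5 had 2400 and 1738 CPM in the HPV+ resistant libraries and 1581 and 1681 CPM in the HPV+ parental libraries. Both resistant libraries were above both parental libraries, but the resistant libraries were 662 CPM apart, more than the 438 CPM between the group means, and the log2 fold change of 0.34 was not called (95% interval −0.144 to 0.831, edgeR adjusted p = 0.307). KRT14 made up 71.66% and 76.56% of the sum of KRT14 and KRT15 by TPM in HPV+ resistant libraries, against 52.27% and 54.26% in HPV+ parental libraries, so that the share of KRT14 was higher in the HPV+ clone and lower in the HPV− clone than in the parental cells. Each share has 2 libraries a group, for which an exact permutation test cannot go below p = 0.3333.

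The epidermal pair KRT1 and KRT10 fell in HPV− cells, and KRT10 fell in both lines. KRT10, the type I keratin of suprabasal epidermis, had 22.16 and 25.23 CPM in the HPV− resistant libraries, against 129.4 and 100.9 CPM in the HPV− parental libraries (4.86-fold lower, log2 fold change −2.28 ± 0.18 SE, edgeR adjusted p = 4.38e-05). In HPV+ cells it had 63.17 and 49.17 CPM in the resistant libraries, against 330.1 and 314.6 CPM in the parental libraries (5.74-fold lower, log2 fold change −2.52 ± 0.18 SE, edgeR adjusted p = 4.85e-05). The 2 changes differed by −0.24 on the log2 scale, HPV+ minus HPV−, with a 95% interval of −0.786 to 0.306 (edgeR adjusted p = 0.56). KRT10 was the 1 keratin of the 7 for which no difference between the lines was called.

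KRT1, the type II partner of KRT10, was nearly absent from the HPV− clone. It had 2 and 0 counts in the HPV− resistant libraries, against 2003 and 1998 counts in the HPV− parental libraries, where it stood at 107.0 and 90.08 CPM. On the pooled counts the parental level was 1950 times the resistant level, with an exact 95% counting interval of 540 to 16100 that covers counting error only (edgeR adjusted p = 2.76e-05). The fitted log2 fold change of −10.79 became −14.17 when replicate 1 of the HPV− clone was left out and −9.87 when its replicate 2 was, and KRT1 was called in both fits. HPV+ cells held little KRT1 in either group, 36 and 11 counts in the resistant libraries and 25 and 31 counts in the parental libraries. These groups overlapped, and the log2 fold change of −0.22 had a 95% interval of −1.327 to 0.885 (edgeR adjusted p = 0.795). It became 0.40 without HPV+ resistant replicate 2, so no direction can be given at this depth. KRT10 was thus present in both HPV+ groups with its usual partner at 1.428 CPM or less in every library.

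Of the mucosal pair, KRT4 separated the lines, whereas for KRT13 both HPV− groups lay between the HPV+ groups. KRT4, the mucosal type II keratin, had 0 counts in both HPV− resistant libraries and 16 and 12 counts in the HPV− parental libraries. Taking 3 counts over the resistant group as the limit of detection, 0.0752 CPM, KRT4 was at least 9.11-fold lower in the HPV− clone (edgeR adjusted p = 0.00164). In HPV+ cells KRT4 ranked among the top 202 genes by CPM in every library. It had 969.1 and 765.3 CPM in the resistant and 622.0 and 616.6 CPM in the parental libraries. The HPV+ groups did not overlap, yet the log2 fold change of 0.49 was not called (95% interval 0.107 to 0.864, edgeR adjusted p = 0.0783).

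KRT13, the mucosal type I keratin and partner of KRT4, had the largest fall of the 7 in HPV+ cells. It had 1.784 and 2.247 CPM in the HPV+ resistant libraries, from 45 and 58 counts, against 67.52 and 57.5 CPM in the HPV+ parental libraries. The fitted level was 30.9-fold lower in the clone (log2 fold change −4.95 ± 0.26 SE, edgeR adjusted p = 1.02e-05). KRT13 was among the genes for which the study lists RT-qPCR primers, and the text used here does not say in which comparison it was measured. The change of KRT13 is therefore not counted as independent evidence. In HPV− cells it had 21.4 and 16.65 CPM in the resistant libraries and 16.18 and 11.32 CPM in the parental libraries. Both resistant libraries were above both parental libraries, by a log2 fold change of 0.47 that was not called (95% interval −0.014 to 0.955, edgeR adjusted p = 0.137). By TPM there was 381.7 and 221.9 times as much KRT4 as KRT13 in the HPV+ resistant libraries, against 6.53 and 7.64 times in the HPV+ parental libraries.

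**Figure D2:**
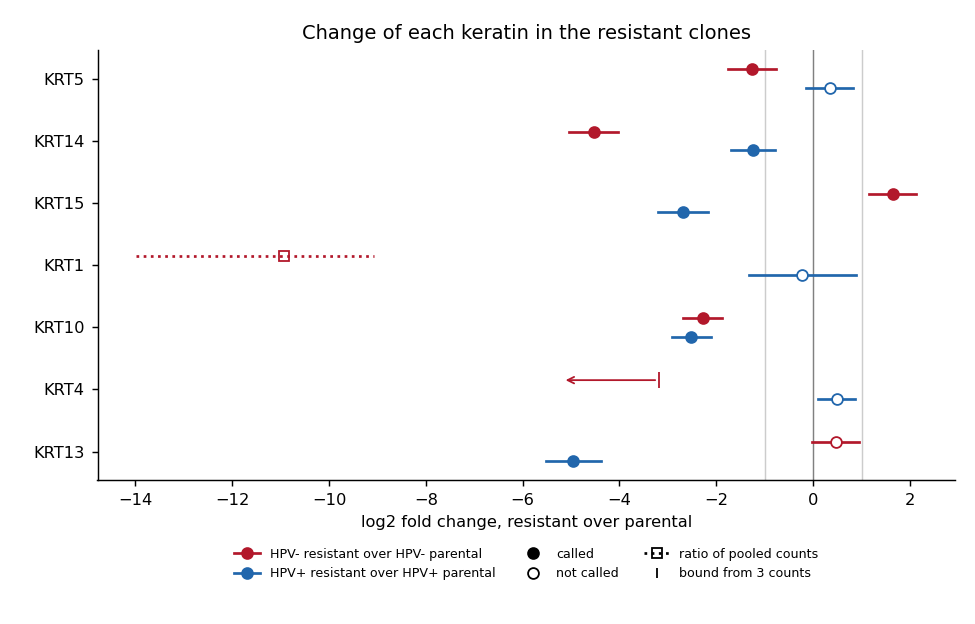
Log2 fold change of each keratin, resistant over parental, in the HPV− line (red, upper of each pair) and the HPV+ line (blue). Filled circles were called and open circles were not, bars are 95% intervals, the square and dotted bar give the ratio of pooled KRT1 counts, and the arrow gives the bound for KRT4 from 3 counts; grey lines mark 0 and a log2 fold change of 1 either way. KRT15 lies to the right of 0 in HPV− cells and to the left in HPV+ cells, whereas the KRT10 intervals of the lines overlap.

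Counted together, 6 of the 7 keratins were called between the HPV− resistant clone and its parental line, 1 higher and 5 lower, where 11.3% of all genes tested were called in either direction, 6.06% higher and 5.22% lower. Between the HPV+ resistant clone and its parental line 4 of the 7 were called, where 8.0% of all genes tested were called, 3.40% higher and 4.60% lower, and all 4 were lower. The 4 were KRT14, KRT15, KRT10 and KRT13, the type I keratins of the list. None of the 3 type II keratins was called by edgeR or, at the same thresholds, by DESeq2. KRT4 alone of them had an unadjusted p under 0.05 in edgeR (0.0186), and DESeq2 on all libraries gave it an adjusted p of 0.0155 with a log2 fold change of 0.51, below the fold threshold. Over all alternatives the adjusted p ranged from 0.000116 to 1 for KRT4 and from 0.0248 to 1 for KRT5, both lowest in DESeq2 on the 4 HPV+ libraries, with log2 fold changes there of 0.478 and 0.336. The median log2 fold change of the 7 was −2.28 in HPV− and −1.25 in HPV+ cells, beside 0.04 and 0.00 over all genes tested. Beside the HPV+ falls, the fibroblast marker LUM had 91.0 and 65.8 CPM in the HPV+ resistant libraries and 241 and 290 CPM in the HPV+ parental libraries, DCN had 43.62 and 20.03 against 99.43 and 119.5 CPM, and COL3A1 had 3079 and 1358 against 2718 and 2974 CPM. Not all fibroblast markers went this way. COL1A1 had 5.155 and 6.703 CPM in the HPV+ resistant and 6.524 and 5.852 CPM in the HPV+ parental libraries, which overlap. COL1A2 averaged 0.654 CPM in HPV+ resistant and 0.236 CPM in HPV+ parental cells, and THY1 0.765 and 0.885 CPM. The part of the fibroblast markers in the keratin results was not tested.

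The resistant-against-parental change itself was then compared between the lines, as the HPV+ minus the HPV− log2 fold change. It was called for 6 of the 7 keratins, 4 positive and 2 negative, where 11.7% of all genes tested were called, 5.17% positive and 6.57% negative. The difference was positive for KRT5 at 1.61 ± 0.31, for KRT14 at 3.29 ± 0.29, for KRT1 at 10.57 ± 0.88 and for KRT4 at 7.48 ± 1.03 (SE, edgeR adjusted p from 9.55e-05 to 0.00659). It was negative for KRT15 at −4.33 ± 0.32 (edgeR adjusted p = 4.59e-05) and for KRT13 at −5.42 ± 0.33 (edgeR adjusted p = 1.21e-05). KRT15 was called in opposite directions in the lines. The KRT1 and KRT4 values are fitted against groups with 2 and 0 counts and depend on the fit's handling of such counts, so only their sign is read. Against a log2 fold change of 1 the KRT5 difference was not called (edgeR adjusted p = 0.176).

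Between the parental lines all 7 keratins were called, 3 higher and 4 lower in HPV+ cells, where 37.0% of all genes tested were called, 17.7% higher and 19.3% lower. KRT10, KRT4 and KRT13 were higher in HPV+ parental cells, with log2 fold changes of 1.49 ± 0.17, 9.80 ± 0.27 and 2.19 ± 0.22 SE. KRT5, KRT14, KRT15 and KRT1 were lower in HPV+ parental cells, with log2 fold changes of −1.97 ± 0.23, −5.52 ± 0.24, −1.61 ± 0.22 and −6.51 ± 0.44 SE (edgeR adjusted p from 1.87e-08 to 0.000132 over the 7). The pooled counts of KRT4 were 32156 in HPV+ parental and 28 in HPV− parental libraries, a ratio of CPM of 905 (exact 95% counting interval 626 to 1360). The HPV+ line was thus higher in both mucosal keratins and lower in all 3 basal keratins, and the epidermal pair was split between the lines.

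Between the resistant clones 6 of the 7 were called, 3 higher and 3 lower in the HPV+ clone, where 36.0% of all genes tested were called, 16% higher and 20% lower. KRT10 was higher in the HPV+ clone by 1.25 ± 0.18 SE on the log2 scale, and KRT4 by at least 11500-fold. KRT1 had 47 pooled counts in the HPV+ clone and 2 in the HPV− clone, a ratio of 18.4 (exact 95% counting interval 4.81 to 156). Its fitted log2 fold change of 4.06 became 2.96 when replicate 1 of the HPV+ clone was left out, and 4.69 when its replicate 2 was. Leaving out replicate 1 of the HPV− clone gave 7.44 and leaving out its replicate 2 gave 3.13, and KRT1 was called in each of these fits. With edgeR on these 4 libraries KRT1 did not pass the expression filter, and 5 keratins were called, 2 of them higher. KRT14, KRT15 and KRT13 were lower in the HPV+ clone, with log2 fold changes of −2.23 ± 0.21, −5.95 ± 0.27 and −3.23 ± 0.25 SE (edgeR adjusted p from 7.03e-08 to 8.52e-06). KRT5 was not called, and its libraries in the clones overlapped (log2 fold change −0.36, 95% interval −0.848 to 0.127, edgeR adjusted p = 0.183). KRT13 was therefore higher in the HPV+ than in the HPV− line among parental cells and lower among resistant clones.

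Ordered by mean level, the libraries of neighbouring groups overlapped between the HPV− and HPV+ clones for KRT5 and between the HPV+ groups for KRT1. How often neighbouring groups overlap over all genes tested was not computed, so the order is not read as a trait of these keratins. KRT5, KRT14 and KRT1 were highest in HPV− parental cells, KRT15 in the HPV− clone, KRT4 in the HPV+ clone, and KRT10 and KRT13 in HPV+ parental cells. The lowest group was the HPV+ clone for KRT14, KRT15 and KRT13, the HPV− clone for KRT1, KRT10 and KRT4, and HPV+ parental cells for KRT5.

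**Figure D3:**
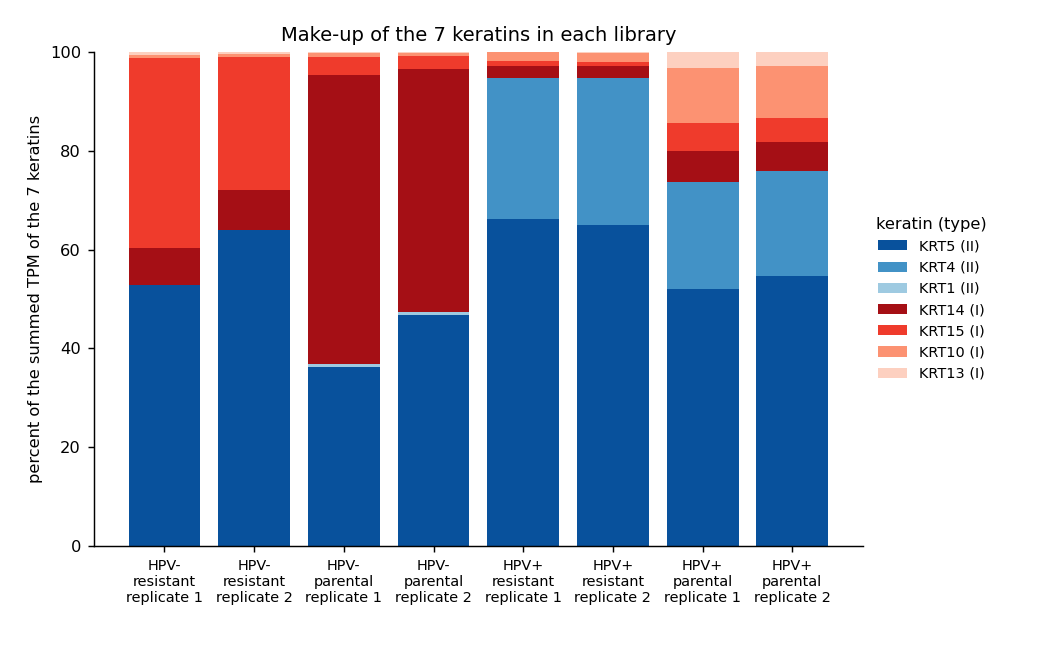
Share of each keratin in the summed TPM of the 7, for each library, with type II keratins in blue below and type I keratins in red above. KRT15 takes the place of KRT14 as the main type I part in the HPV− resistant libraries, and type II keratins take 94.82% of both HPV+ resistant libraries.

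On the TPM scale the basal keratins made up most of the sum of the 7 in every library, 98.76% and 99.0% in HPV− resistant and 98.38% and 98.65% in HPV− parental libraries, and 69.58% and 68.07% in HPV+ resistant and 63.74% and 65.45% in HPV+ parental libraries. The mucosal pair made up 28.6% and 30.04% in HPV+ resistant and 25.08% and 23.98% in HPV+ parental libraries, and under 1% in every HPV− library. The epidermal pair made up 1.83% and 1.89% in HPV+ resistant libraries, against 11.18% and 10.57% in HPV+ parental libraries. The summed TPM of the 7 was 2348 and 2698 in the HPV− resistant libraries, against 7122 and 7799 in the HPV− parental libraries, and 2197 and 1659 in HPV+ resistant libraries, against 1637 and 1767 in HPV+ parental libraries. The sum was therefore lower in both HPV− resistant libraries than in either parental library, and the HPV+ groups overlapped.

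Because a filament needs both types, the balance of type II to type I transcripts was computed for the 7 and for all 26 type II and 28 type I keratin genes with a matched transcript. Among the 7, the type II to type I ratio was 18.3 in both HPV+ resistant libraries, against 2.81 and 3.15 in the HPV+ parental libraries. In HPV− cells it was 1.12 and 1.77 in the resistant libraries, against 0.585 and 0.90 in the parental libraries. Over all keratin genes the ratio was 1.57 and 1.46 in HPV+ resistant libraries and 1.56 and 1.502 in HPV+ parental libraries, and 0.65 and 0.877 in HPV− resistant and 0.689 and 0.911 in HPV− parental libraries. The ranges of resistant and parental cells overlapped in both lines, so no shift was detectable over the whole family with 2 libraries a group.

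**Figure D4:**
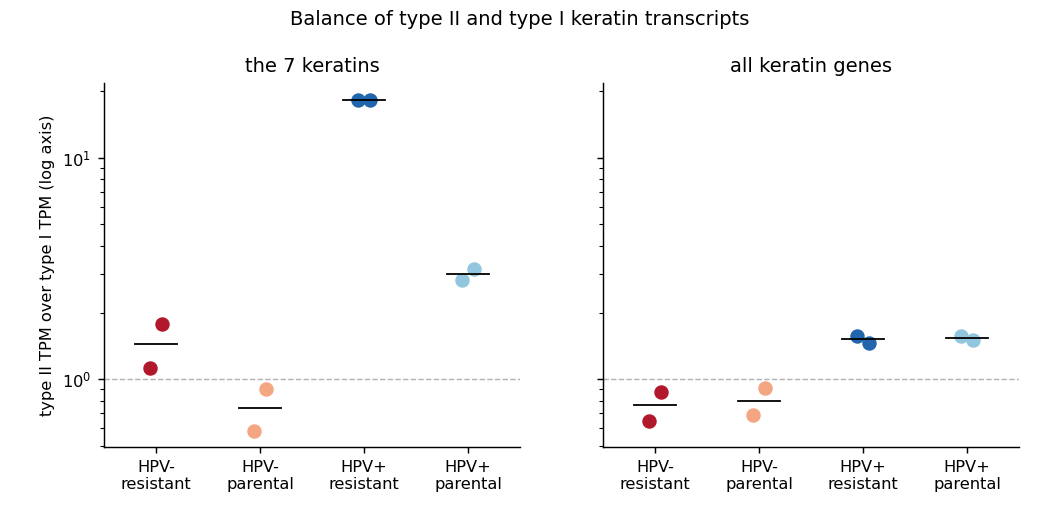
Ratio of summed type II to summed type I keratin TPM in each library on a log axis, for the 7 keratins and for all keratin genes, with 2 points and a line at the mean for each group. The HPV+ resistant libraries stand at 18.3 for the 7 keratins but at 1.57 and 1.46 for all keratin genes, above and below the HPV+ parental libraries at 1.56 and 1.502.

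The type I keratins KRT17 and KRT18, outside the list, were called higher in the HPV+ clone, whereas KRT16, KRT9 and KRT19 were not called. The other keratins called higher there were of type II, KRT6A, KRT6B, KRT6C and KRT81. KRT18, a type I keratin of simple epithelium, had 1071 and 955.5 CPM in the HPV+ resistant libraries, against 390.6 and 492.8 CPM in the HPV+ parental libraries (log2 fold change 1.20 ± 0.19 SE, edgeR adjusted p = 0.00256). KRT17, a type I keratin induced by wounding, had 361.3 and 271.5 CPM in the HPV+ resistant libraries, against 39.6 and 36.4 CPM in the HPV+ parental libraries (log2 fold change 3.06 ± 0.21 SE, edgeR adjusted p = 4.18e-05). Together the 7 keratins held 53.6% and 49.6% of all keratin TPM in the HPV+ resistant libraries, against 75.8% and 72.6% in the HPV+ parental libraries. In HPV− cells that share was 56.8% and 54.9% in resistant and 53.8% and 56.5% in parental libraries, which overlap. KRT19, a type I keratin with no tail domain, was at 0 in all 4 HPV+ libraries, and had 781 and 975 CPM in HPV− resistant and 564 and 468 CPM in HPV− parental libraries.

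Of the 16 keratin genes tested outside the list, edgeR called 7 in the HPV− clone, each of them lower, where 5.22% of all genes tested were called lower. It called 6 in the HPV+ clone, each of them higher, where 3.40% of all genes tested were called higher. Among these 6, KRT6B averaged 1.39 CPM in the HPV+ clone and 0.134 CPM in HPV+ parental cells, and KRT6C 0.392 and 0.0967 CPM. The sizes of these rises are therefore uncertain. The stress keratin KRT6A, a type II keratin of wounded epithelium, had 64.97 and 115.2 CPM in HPV− resistant libraries, against 5388 and 4936 CPM in HPV− parental libraries (log2 fold change −5.84 ± 0.29 SE, edgeR adjusted p = 2.66e-06). In HPV+ cells KRT6A had 501 and 447 CPM in resistant libraries, against 67.6 and 65.7 CPM in parental libraries (log2 fold change 2.83 ± 0.25 SE, edgeR adjusted p = 0.000131). KRT6A was also an RT-qPCR target of the study, and KRT16 is among the genes with RT-qPCR primers listed. KRT17 likewise fell in the HPV− clone, to 475 and 540 CPM against 3589 and 2681 CPM in parental cells (log2 fold change −2.63 ± 0.21 SE, edgeR adjusted p = 4.02e-05).

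**Figure D5:**
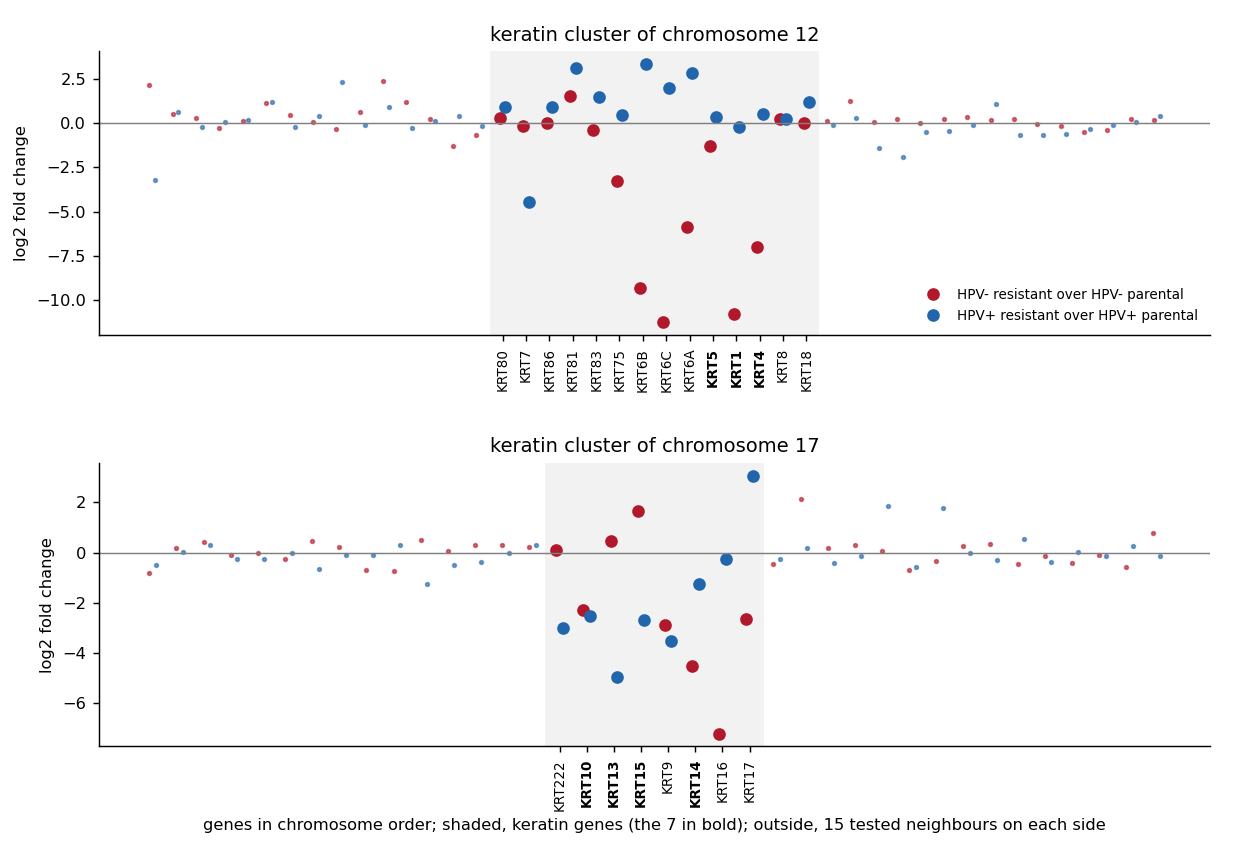
Fitted log2 fold change of each tested keratin gene (large points, shaded, the 7 in bold) and of the 15 nearest tested genes on each side (small points), in chromosome order, for the HPV− line in red and the HPV+ line in blue; KRT19 is left out because it had no count in HPV+ cells, and the KRT1 and KRT4 values in HPV− cells rest on groups of 2 and 0 counts. Most flanking genes lie near 0, whereas the keratins between them spread from −11.24 to 3.31. Both ends rest on groups with few counts, KRT6C at a mean of 0.0252 CPM in the HPV− clone and KRT6B at 0.134 CPM in HPV+ parental cells. KRT7 in HPV+ cells rests on such levels too, so these sizes are uncertain.

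The genes that flank the keratin clusters had median changes near 0. Over 30 tested flanking genes of the chromosome 12 cluster, which holds KRT5, KRT1 and KRT4, the median log2 fold change was 0.20 in HPV− cells, with 3 genes called higher and 1 lower, where 11.3% of all genes tested were called. In HPV+ cells it was −0.12, with 2 called higher and 3 lower, where 8.0% of all genes tested were called. Over the 30 flanking genes of the chromosome 17 cluster, which holds the 4 type I members, the median was 0.06 in HPV− cells, with 1 called, higher, and −0.12 in HPV+ cells, with 1 called, lower. KRT13 and KRT15 are next to each other among the tested genes of chromosome 17, and both were lower in the HPV+ clone, while in the HPV− clone KRT15 was called higher and KRT13 was not called.

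RefSeq promoter sequence (GRCh38.p14) was matched for 3 of the 7, KRT5, KRT4 and KRT10. The 250 bases before the start of KRT5 and KRT10 are shown because these were the matched members that both fell in the HPV− clone at levels above the limit of detection. The starts are those of RefSeq, which for KRT5 lies inside the GENCODE span given above, so part of the KRT5 window is within that span. They lie at chr12:52520395-52520644 and chr17:40822615-40822864, both on the minus strand, and are written 5′ to 3′ with TATA-like matches in capitals.
KRT5: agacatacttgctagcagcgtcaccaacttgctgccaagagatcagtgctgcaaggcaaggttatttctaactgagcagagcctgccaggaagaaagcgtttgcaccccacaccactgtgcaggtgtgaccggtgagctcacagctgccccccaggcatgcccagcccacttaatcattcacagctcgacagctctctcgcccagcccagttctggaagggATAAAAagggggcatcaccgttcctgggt
KRT10: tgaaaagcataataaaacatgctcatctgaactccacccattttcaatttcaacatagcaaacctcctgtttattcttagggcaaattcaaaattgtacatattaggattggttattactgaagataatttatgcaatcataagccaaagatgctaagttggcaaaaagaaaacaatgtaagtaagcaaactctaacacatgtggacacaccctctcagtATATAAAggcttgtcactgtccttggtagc
The search was for TATAAA or ATAAAA or ATATAA on the gene's strand within 40 bases of the start, where 4.27% of 35116 promoters hold a match. KRT5 has its match 29 bases before the start, KRT4 and KRT10 have theirs at 30 bases, and in KRT10 an ATATAA match overlaps a TATAAA match. The AP-1 letters TGACTCA or TGAGTCA, searched on both strands, were in none of the 3 windows of 250 bases and in 4.20% of all promoters. The AP-2 letters GCCNNNGGC, searched on both strands, were in the KRT4 window and in 19.8% of all promoters.

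Within genes, reads came mostly from 1 annotated transcript. The main transcript held over 97% of the counts of KRT5, KRT14 and KRT4 wherever they had at least 1000 counts. For KRT15 it held 69.02% and 82.1% in HPV+ resistant libraries, against 84.58% and 86.22% in HPV+ parental libraries, and from 93.38% to 94.56% in the HPV− libraries. For KRT13 it held 14% and 58.62% in HPV+ resistant libraries, of 45 and 58 counts, against 58.48% and 57.57% in HPV+ parental libraries. The KRT13 shares of the HPV+ clone rest on too few counts for a difference to be read.

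The genes around the keratins in the squamous programme were counted from lists of known function. Of 14 tested genes of suprabasal differentiation, other than keratins, 9 were lower and 1 was higher in HPV− resistant cells, where 5.22% of all genes tested were called lower and 6.06% higher. In HPV+ resistant cells 5 were higher with 1 lower, where 3.40% of all genes tested were called higher and 4.60% lower. SPRR1B, a cornified envelope precursor, averaged 0.0252 CPM in HPV− resistant and 118 CPM in HPV− parental cells, and 1.69 CPM in HPV+ resistant and 0.382 CPM in HPV+ parental cells. DSG1, a desmosomal cadherin of the upper layers, had a log2 fold change of −3.49 ± 0.40 in HPV− and 2.28 ± 0.39 SE in HPV+ cells (edgeR adjusted p = 0.000364 and 0.00374). CNFN, a cornified envelope protein, ran the other way, at 1.07 ± 0.30 in HPV− and −1.83 ± 0.32 SE in HPV+ cells (edgeR adjusted p = 0.0248 and 0.00459).

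Of 13 basal attachment genes, which anchor the basal keratins to the basement membrane, 5 were called in the HPV− clone, each lower, where 11.3% of all genes tested were called in either direction and 5.22% lower. In the HPV+ clone 4 were called, of which 3 were higher, where 8.0% of all genes tested were called in either direction and 3.40% higher. COL17A1, a collagen of the hemidesmosome, fell in both, with log2 fold changes of −1.11 ± 0.17 in HPV− and −1.22 ± 0.17 SE in HPV+ cells (edgeR adjusted p = 0.00138 and 0.00135). PLEC, the linker from keratin to the hemidesmosome, fell by 1.65 on the log2 scale in the HPV− clone (edgeR adjusted p = 0.000575). Of 18 keratin-binding and desmosomal plaque genes, 4 were called in the HPV− clone, each lower, and 3 in the HPV+ clone, of which 2 were lower, beside the same shares of 11.3% and 8.0% of all genes. Over all genes tested, 5.22% were called lower in the HPV− clone and 4.60% in the HPV+ clone. PKP1, a plakophilin that binds keratins at the desmosome, fell by 2.13 on the log2 scale in the HPV− clone (edgeR adjusted p = 3.35e-05).

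Of 42 keratinocyte transcription factors, 10 were lower and 4 higher in HPV− resistant cells, where 5.22% of all genes tested were called lower and 6.06% higher. In HPV+ resistant cells 6 were lower with 8 higher, where 4.60% of all genes tested were called lower and 3.40% higher. In either direction, 11.3% and 8.0% of all genes tested were called in these lines. ZNF750, a factor of terminal differentiation, averaged 0.301 CPM in HPV− resistant and 7.5 CPM in HPV− parental cells, and 4.51 CPM in HPV+ resistant and 0.495 CPM in HPV+ parental cells, and was called in opposite directions in the lines. ELF3, an epithelial ETS factor, averaged 75.9 CPM in HPV− resistant and 4.55 CPM in HPV− parental cells (log2 fold change 4.07 ± 0.24 SE, edgeR adjusted p = 1.82e-05). In HPV+ cells ELF3 was called lower, with 0 CPM in both resistant libraries and a mean of 0.48 CPM in parental cells (edgeR adjusted p = 0.00218). KLF4, a factor of the differentiating layers, fell in the HPV+ clone to 13.0 CPM, against 88.8 CPM in HPV+ parental cells (log2 fold change −2.77 ± 0.18 SE, edgeR adjusted p = 3.41e-05). TP63, the factor of the basal layer, had 271 and 230 CPM in HPV− resistant and 361 and 442 CPM in HPV− parental libraries, and 571 and 584 CPM in HPV+ resistant and 417 and 416 CPM in HPV+ parental libraries.

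Across the 8 libraries, as a description with no test, the log2 levels of KRT5 and KRT14 had a Pearson r of 0.924, those of KRT15 and KRT4 −0.901, those of the epidermal partners KRT1 and KRT10 0.458, and those of the mucosal partners KRT4 and KRT13 −0.182. These points share 4 groups, so an r over them mostly sets groups side by side. Among 13172 genes searched, the gene nearest to KRT5 in pattern was CSTF2 (r = 0.994), to KRT14 WDR77 (r = 0.995), to KRT15 MLYCD (r = 0.994), to KRT1 MTBP (r = 0.993), to KRT10 HDDC2 (r = 0.991), to KRT4 SYK (r = 0.999) and to KRT13 APRT (r = 0.974). No nearest gene of a keratin was another keratin.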

How the data were processed

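PolyA RNA from 8 libraries was sequenced by the study, which ran Salmon against GRCh38, as the submitters' processing notes also say. No source used here states its version, or which annotation it was given. The authors deposited for each transcript the estimated counts, not scaled for depth, the TPM, scaled for length and depth, and other values such as the effective length. From these, 172550 of 187432 transcripts were matched by ID to GENCODE release 44 (168265 with the same version), and the deposited estimated counts were summed per gene and rounded. The other transcripts held 4.33% to 5.13% of counts and were left out. Salmon divides reads among similar transcripts by probability, so levels of similar keratins depend on that division.

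All 8 libraries entered 1 fit in edgeR 4.0.16 (R 4.3.3, limma 3.58.1) with 1 coefficient per group, using filterByExpr, TMM factors and robust quasi-likelihood F-tests. The common dispersion was 0.0326, with 4 residual degrees of freedom. Benjamini-Hochberg adjustment ran over 15221 genes. The calling thresholds were those of the study, which used DESeq2. Groups at 0 were bounded with 3 counts over the group, and groups with few counts have exact 95% intervals of counting error. Log2 levels for correlations used a prior count of 2. The scripts were tested on simulated data.

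The members, gene lists and tests were chosen with earlier results of these data known. Named genes were the 7 keratins, the genes most like each, up to 3 genes per direction and list with the smallest p, and 15 flanking genes on each side of a cluster. KRT17, KRT18, KRT19 and TP63 were also named after their values were seen. Alternatives were DESeq2 1.42.0, edgeR on 4 libraries, other size factors, a length offset, no filter or at least 5 CPM in 2 libraries, other fold rules, a replicate block and leaving out each library. Adding up KRT14 and its relatives (genes with at least 10% of its 31-base stretches) was chosen after seeing the data. Other files' values were not used. Plots used matplotlib 3.10.9.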

Additional observations from a re-analysis of the deposited data

Results flagged for a closer look

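The change from parental to resistant cells differed between the HPV+ and the HPV− line for 6 of the 7 keratins, by a test of the difference itself, where 11.7% of all genes tested were called. The HPV+ minus HPV− log2 fold change was 1.61 for KRT5, 3.29 for KRT14, −4.33 for KRT15, 10.57 for KRT1, 7.48 for KRT4 and −5.42 for KRT13. For KRT15 the resistant clones moved in opposite directions in the 2 lines, while for KRT14 both fell. The KRT1 and KRT4 values rest on 2 and 0 counts in the HPV− clone.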

How the results depend on the processing

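The numbers of keratins called stayed within 1.5 times their values under every alternative that could be run. Of 685 values of single keratins, 678 kept their direction and side of the threshold. Many of these values, and of the numbers called, had little room to change. The alternative with no minimum fold change reuses the main fit, and many left-out libraries lay outside the comparison. The test against a log2 fold change of 1 ended the calls of KRT5 (log2 fold change −1.27) and KRT15 (1.64) in HPV− cells, KRT14 (−1.25) in HPV+ cells, KRT10 (1.25) between the resistant clones and the KRT5 difference (1.61) between the lines. Adding KRT14 to its relatives ended its call in HPV+ cells (−0.98). KRT1 in HPV+ cells ranged from −1.33 to 0.40 as single libraries were left out, turning positive without HPV+ resistant replicate 2, and was not called in any of these fits. A lone library left in a group is assumed to vary like the other groups. Upper-quartile factors moved the median of all genes in HPV− cells to 0.12 from 0.04. Over all genes, 1218 were called in HPV+ cells, but 566 or 809 when HPV+ parental replicate 1 or 2 was left out, and 223 against a log2 fold change of 1, where HPV− cells had 330 and the difference 500. Neither DESeq2 nor edgeR on 4 libraries can give the difference between the lines, which needs all 8.

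Groups share replicate numbers, but no source pairs them, and deviations of same-numbered libraries correlated by −0.074 to 0.142. With a replicate block 6 keratins were called in HPV− cells, 4 in HPV+ cells and 6 for the difference, as without it. Depth limits KRT1, KRT4 and KRT13 where they had under 60 counts.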
